A study of Phalacrocorax auritus with 15 samples.

Results

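Among the 16181 features counted in embryonic livers of the double-crested cormorant, 88 features (0.544%) were abundant in livers given solvent and lower in livers exposed to ethinylestradiol (EE2), a synthetic oestrogen. Levels are in CPM, the counts of a feature per 1000000 counts of its library. The solvent level is the mean CPM of solvent replicates 1, 3, 4 and 5, and the exposed level is the mean CPM of the 10 exposed libraries. The 88 features had a solvent level of at least 100 CPM and an exposed level of no more than the solvent level divided by 3. They were 7.46% of the 1180 features with a solvent level of at least 100 CPM. Because these 14 libraries chose the features, the gap between exposed and solvent livers is given as a description, and no test of it is used as support. The values of solvent replicate 2 and the difference between the doses did not enter these limits. That library was left out of the solvent level with earlier results of these data known.

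Left-lobe liver was sampled from embryos in 3 groups of 5 samples each. The solvent group received dimethyl sulfoxide, and the other groups received EE2 at 3.33 µg/g egg (nominal; the actual dose was 2.3) or at 33.3 µg/g egg (nominal; the actual dose was 31.9). Each dose was placed in the air cell of the egg in 50 µl before incubation. The sample labels give embryonic day 14 and the series design gives day 16. In the count table all solvent libraries carry one column prefix and all exposed libraries another, so exposure and anything that goes with the prefix cannot be told apart. The labels do not say that replicates came from separate eggs, so the spread behind the p-values may be technical.

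The liver makes most of the proteins of the blood plasma, and a few transcripts for secreted proteins can take up much of its RNA. Oestrogens bind nuclear oestrogen receptors, which act as transcription factors in hepatocytes. In egg-laying vertebrates oestrogen is known for inducing the yolk precursor proteins in liver, in males and embryos too when the hormone is given. The count table holds IDs without gene names (0 of 16181 were named). The features are therefore described by their rank, where rank 1 has the highest solvent level, and 2 of them are also given by ID. No role can be stated for any of them, and the tissue was not checked against marker genes. Ranks order counts per feature and not transcript abundance, since feature lengths were not used here.

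The library totals lay between 11602455 and 19929889 counts, and solvent replicate 2 had the lowest. That library stood apart from its group: its 20 most abundant features held 10.04% of its counts, against 25.6 to 31.2% in the other 4 solvent libraries. The scaling factor by trimmed mean of M-values (TMM), which corrects for such differences in make-up, was 1.41 in solvent replicate 2 and 0.632 to 0.855 in the other solvent libraries. It was 0.985 to 1.35 at 3.33 µg/g, highest in replicate 5, and 1.02 to 1.21 at 33.3 µg/g, highest in replicate 3. Over all 13014 features tested the median ratio of the exposed to the solvent level was 169% on CPM, so most features were higher in exposed livers on this scale. With TMM-scaled library sizes in place of library totals the same limits gave 216 features, all 88 among them.

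Together the 88 features held 3.91 ± 1.48% of the counts of an exposed library (SD, n = 10), against 21.01 ± 1.78% in the solvent libraries other than replicate 2 (SD, n = 4). By library, the share was 22.3, 1.22, 22.3, 18.5 and 20.9% in solvent replicates 1 to 5. It was 6.35, 5.04, 5.11, 2.77 and 1.68% in replicates 1 to 5 at 3.33 µg/g and 4.44, 2.69, 2.34, 4.65 and 3.99% in replicates 1 to 5 at 33.3 µg/g. Every exposed library lay below the solvent libraries other than replicate 2, and solvent replicate 2 lay below every exposed library. In bulk tissue, fewer cells of a type and less RNA per cell cannot be told apart.

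**Figure D1:**
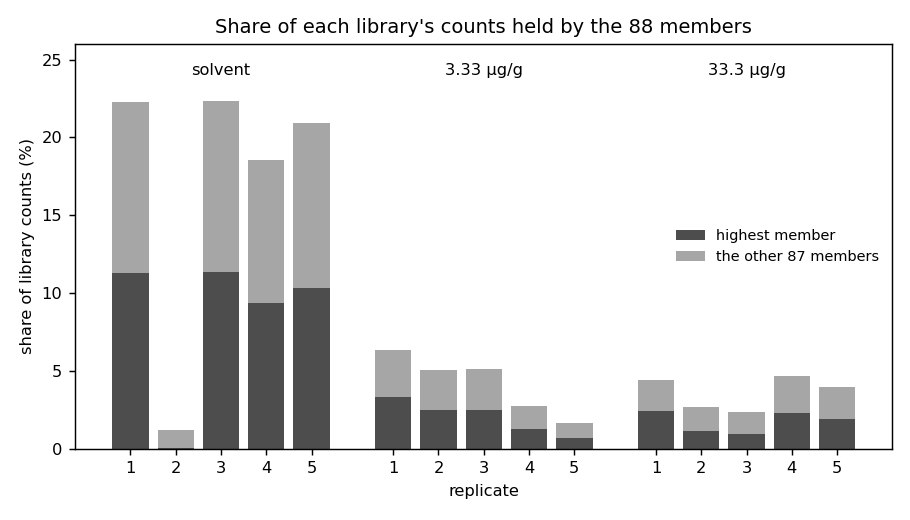
Share of each library's counts (%, vertical axis) held by the 88 features in the 15 libraries, by group and replicate; the dark part of a bar is the feature of rank 1 and the light part the other 87 features. The exposed libraries stand at 1.68 to 6.35%, solvent replicate 2 at 1.22% and solvent replicates 1, 3, 4 and 5 at 18.5 to 22.3%.

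The exposed level was at least 100 CPM for 31 of the 88, between 10 and 100 CPM for 48 and below 10 CPM for 9. The solvent levels ran from 101 to 105855 CPM, with 2 features at 10000 CPM or more, 19 between 1000 and 10000, 41 between 200 and 1000 and 26 between 100 and 200. The exposed level was a median 17.8% of the solvent level, with a range of 0.630 to 33.1%. Over all 1180 features with a solvent level of at least 100 CPM this median was 109%. The 21 features with a solvent level of at least 1000 CPM had a median of 17.9%, and the 67 below it 17.7%, so the medians of the high and the low features were close.

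The feature of rank 1, s2f_0006127001, had the highest count level of the 88. In solvent replicates 1 to 5 it had 112937, 327, 113434, 93878 and 103171 CPM. At 3.33 µg/g the replicates 1 to 5 had 33438, 24937, 25046, 12417 and 7158 CPM. At 33.3 µg/g they had 24457, 11301, 9404, 22879 and 18993 CPM. Its exposed level was 19003 ± 8564 CPM (SD, n = 10), against a solvent level of 105855 ± 9278 CPM (SD, n = 4). This single feature took 1.90 ± 0.856% of the counts of an exposed library (SD, n = 10) and 10.6 ± 0.928% of those of the solvent libraries other than replicate 2 (SD, n = 4). Its lowest exposed library, replicate 5 at 3.33 µg/g, was still far above solvent replicate 2. None of the exposed libraries reached the range of the other 4 solvent libraries.

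The feature of rank 2 was lowered less. Solvent replicates 1 to 5 had 25193, 87.8, 27529, 23777 and 24549.9 CPM. The libraries at 3.33 µg/g had 11009, 9138, 9568, 4182 and 2108 CPM, and those at 33.3 µg/g had 5278, 4998, 4956, 8696 and 7621 CPM, in the same order of replicates. The exposed level was 26.7% of the solvent level. The groups did not overlap once solvent replicate 2 was set aside, and the 2 lowest exposed values were in replicates 5 and 4 at 3.33 µg/g. The feature of rank 3 was lowered more, to 6.63% of its solvent level. It stood at 9626, 40.7, 9448, 6720.4 and 8649 CPM in solvent replicates 1 to 5. Replicates 1 to 5 had 783, 630.4, 704, 455 and 167 CPM at 3.33 µg/g and 642, 640.0, 345, 707 and 633 CPM at 33.3 µg/g. Its highest exposed library, replicate 1 at 3.33 µg/g, was well below the lowest of the 4 solvent libraries, replicate 4.

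The features of rank 4 to 10 had exposed levels of 316 to 1586 CPM and solvent levels of 2322 to 7446 CPM. Their exposed levels were between 11.8% of the solvent level, for rank 8, and 33.1%, for rank 9. Rank 9 was also the feature closest to the limit of the choice. Together the features of rank 2 to 10 took 1.34% of the counts in the exposed mean and 6.40% in the solvent mean. The 11 features of rank 11 to 21, the rest of those at 1000 CPM or more, took 0.248% in the exposed mean and 1.78% in the solvent mean. Rank 1 alone made up 1.90 points of the 3.91% held in the exposed mean and 10.6 points of the 21.01% held in the solvent mean.

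By library, rank 4 had 7771, 61.7, 7692, 6847 and 7475 CPM in solvent replicates 1 to 5. Its exposed libraries had 2163, 2426, 2263, 1206 and 738 CPM at 3.33 µg/g and 1966, 927, 845, 1833 and 1489 CPM at 33.3 µg/g in the same order of replicates. Replicate 5 at 3.33 µg/g was the lowest exposed library, as at ranks 1 to 3. Rank 8 kept a larger part of its level in solvent replicate 2, with 2975, 54.0, 2384, 2158 and 3166 CPM in solvent replicates 1 to 5. In exposed livers it had 497, 345, 384, 250.3 and 158 CPM at 3.33 µg/g and 402, 251, 178, 400.5 and 291 CPM at 33.3 µg/g. Solvent replicate 2 lay below every exposed library at rank 8, and exposed and solvent libraries other than replicate 2 did not overlap at either rank.

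**Figure D2:**
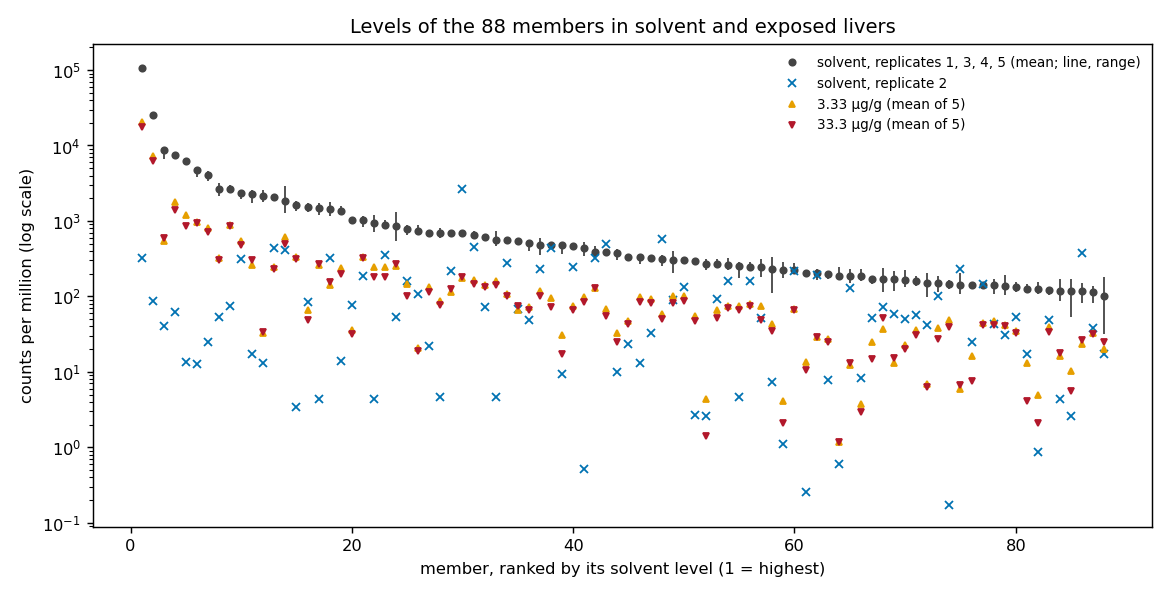
Level of each of the 88 features (CPM, log scale) against its rank by solvent level, as the mean of solvent replicates 1, 3, 4 and 5 with a line for their range, solvent replicate 2 alone, and the means of 5 libraries at 3.33 and at 33.3 µg/g. The means at both doses lie below the solvent means at every rank, while solvent replicate 2 scatters from 0.117 to 392% of the solvent level.

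Grouped by depth, the exposed level was at most 5% of the solvent level for 11 features, above 5% and up to 10% for 9, above 10% and up to 20% for 28, and above 20% for 40. The lowest ratio, 0.630%, belonged to s2f_0006018003, which had rank 64. Its level was 171, 0.603, 170.2, 164 and 242 CPM in solvent replicates 1 to 5. With EE2 it was 2.17, 0.366, 1.12, 1.15 and 1.07 CPM in replicates 1 to 5 at 3.33 µg/g. It was 0.323, 1.14, 1.38, 0.602 and 2.44 CPM in replicates 1 to 5 at 33.3 µg/g. These were 5 to 48 counts in exposed libraries, 7 counts in solvent replicate 2 and 2931 to 4307 counts in the other solvent libraries. The exposed level was 1.18 ± 0.696 CPM (SD, n = 10), against a solvent level of 187 ± 36.7 CPM (SD, n = 4), a ratio of solvent to exposed of 159. Its lowest solvent value outside replicate 2 was 67.3 times its highest exposed value, the widest such gap among the 88 features.

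The feature with the next lowest ratio, 1.07%, had rank 52. In solvent replicates 1 to 5 it had 264, 2.59, 286, 227 and 310.4 CPM. At 3.33 µg/g the replicates 1 to 5 had 7.55, 5.001, 3.18, 0.960 and 5.39 CPM. At 33.3 µg/g they had 1.81, 1.07, 0.943, 1.20 and 1.93 CPM. All libraries at 33.3 µg/g were below 2 CPM, and at 3.33 µg/g replicate 4 was. Rank 59 had a ratio of 1.38% and behaved unevenly within the doses. Solvent replicates 1 to 5 had 273, 1.12, 173, 175 and 281 CPM. The libraries at 3.33 µg/g had 2.31, 0.610, 0.948, 0.896 and 15.8 CPM, and those at 33.3 µg/g had 1.10, 0.534, 7.10, 0.753 and 1.02 CPM, in the same order of replicates. The highest exposed values were in replicate 5 at 3.33 µg/g and replicate 3 at 33.3 µg/g, the libraries in which most of the other features were lowest.

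Rank 12 combined a high solvent level with a deep decrease, to 1.54%: its exposed level was 33.3 ± 11.4 CPM (SD, n = 10) and its solvent level 2163 ± 326 CPM (SD, n = 4). Rank 66 stood at 3.35 ± 1.60 CPM in exposed livers (SD, n = 10) and 185 ± 34.1 CPM in solvent livers (SD, n = 4), a ratio of 1.81%. No exposed library overlapped the 4 solvent libraries at either feature. Solvent replicate 2 had 13.2 CPM at rank 12, below every exposed library, and 8.36 CPM at rank 66, above every exposed library. All 11 features at or below 5% kept counts in every exposed library, since 0 of the 88 features had a count of 0 in any library and the lowest count in an exposed library was 5.

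At each of the 88 features the highest exposed library was below the lowest of solvent replicates 1, 3, 4 and 5, which held for 4.8% of the features tested. The gap was at least 2-fold for 70 features and at least 10-fold for 8, with a median of 2.95-fold. Gap sizes were not counted over other features, and the ratio limit of the choice itself favours wide gaps. The narrowest gap, 1.15-fold, was at rank 88, where exposed libraries had 15.04 to 27.8 CPM. Solvent replicates 3 and 4 had 31.9 and 39.7 CPM at that rank, and replicates 1 and 5 had 147 and 183 CPM. With solvent replicate 2 included, every exposed library lay below all 5 solvent libraries at 30 features (34.1%). The share was 11.4% among the 1180 features with a solvent level of at least 100 CPM and 2.57% among those tested. All 88 already lay below the 4 solvent libraries used in the choice, so 34.1% cannot be set against these shares. The 30 are the features with solvent replicate 2 above every exposed library, which held for 25.2% of the 1180.

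In a model fitted to all 13014 features with TMM scaling, the features had a median log2 fold change of -2.95 at 33.3 µg/g and -2.74 at 3.33 µg/g against solvent, where the medians of all features tested were 0.02 and -0.0046. An adjusted p under 0.05 (edgeR quasi-likelihood test, Benjamini-Hochberg over all features) was reached in the lower direction by 83 of the 88 at 33.3 µg/g, where the share of all features was 14.4%. The lower dose gave 77 of 88, against 13.3% of all features. Without solvent replicate 2 it was reached by all 88 at both doses, against 20.8% at 33.3 µg/g and 18.9% at 3.33 µg/g. The features were chosen on this contrast, so these counts are not evidence about them. Both doses share the solvent libraries.

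The features that missed that threshold with all libraries in the fit included the most abundant ones. They were ranks 2, 9, 33, 55 and 74 at 33.3 µg/g. The lower dose added to these, giving ranks 1, 2, 4, 5, 9, 15, 22, 33, 41, 55 and 74. In each of these features solvent replicate 2 was at most 2.85% of the solvent level. For rank 1 the log2 fold change at 3.33 µg/g was -2.64 with a standard error of 0.99, and without solvent replicate 2 it was -2.96. For rank 2 at 33.3 µg/g it was -2.34 with a standard error of 0.94, and -2.66 without that library.

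Solvent replicate 2 was low at most of these features. Its values did not enter the solvent level, but it was left out with earlier results of these data known. With it in the solvent mean, 68 of the 88 were still chosen. It is therefore no independent check. Its label is solvent, and neither the label nor the identity of the sample could be checked here. It held no more than the solvent level divided by 3 at 61 of the 88 (69.3%). Among all 1180 features with a solvent level of at least 100 CPM the share was 14.1%, and among the 1092 of these outside the 88 it was 9.62%. It was below every other solvent library at 80 of 88, against 40.9% of the 1180, and above every other one at 5, against 44.2%. This is 1 library, so these shares carry no test. The median level in solvent replicate 2 was 13.4% of the solvent level for the 88 features and 100.5% for the 1180.

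Within the 88, the depletion in solvent replicate 2 was deeper in the median of the abundant features, but not at each of them. The same split by level was not made for features outside the 88. All 21 with a solvent level of at least 1000 CPM were at or below 22.9% of it there, with a median of 0.829%. At the 67 features under 1000 CPM the median was 22.9%. Ranks 13, 14 and 18, all above 1000 CPM, kept 21.5 to 22.9%, whereas the 3 lowest values were at ranks 74, 41 and 61. At 22 of the 88 features the library held at most 1% of the solvent level, against 3.73% of the 1180, and these included ranks 1 to 7. The lowest, rank 74, had 2 counts in solvent replicate 2, or 0.117% of its solvent level, with an exact Poisson 95% interval from 0.0141 to 0.422% (counting error alone). At that feature exposed libraries had 21.4 to 71.1 CPM.

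Solvent replicate 2 and the exposed libraries differed feature by feature. It lay below every exposed library at 34 features, within their range at 24 and above all of them at 30. These were 38.6%, 27.3% and 34.1% of the 88. Over the 1180 features it was below every exposed library at 36.4%, within their range at 38.5% and above all of them at 25.2%. Of the 21 features with a solvent level of at least 1000 CPM it was below every exposed library at 15. This count was not taken over the other features of that level, so it is not known to be particular to the 88.

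At 6 of the 88 features solvent replicate 2 was at or above the solvent level, against 50.1% of the 1180. At these 6 all 5 solvent libraries lay above all 10 exposed libraries. The clearest was rank 30. It stood at 695, 2677, 661, 606 and 766 CPM in solvent replicates 1 to 5. Replicates 1 to 5 had 233, 154, 181, 157 and 141 CPM at 3.33 µg/g and 153, 235, 141, 192 and 174 CPM at 33.3 µg/g. Its value in solvent replicate 2 was 392% of the solvent level, the highest of the 88. At rank 86 exposed libraries had 14.7 to 35.4 CPM, solvent replicate 2 had 375 CPM and the other solvent libraries had 81.9 to 153 CPM.

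The others were closer to their group. Rank 43 had 31.7 to 132 CPM in exposed livers, and 413, 499, 376, 342 and 407 CPM in solvent replicates 1 to 5. Rank 48 had 40.4 to 78.6 CPM in exposed livers, and 326, 577, 351, 251 and 308 CPM in solvent replicates 1 to 5. Rank 75 had 1.42 to 15.3 CPM in exposed livers, and 142, 227, 114, 108 and 205 CPM in solvent replicates 1 to 5. Rank 77 had 29.4 to 57.3 CPM in exposed livers, against an even 144, 146, 136, 139.9 and 147 CPM in solvent replicates 1 to 5. Solvent replicate 2 was thus the highest solvent library at ranks 43, 48 and 75 and within the range of its group at rank 77.

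More widely, solvent replicate 2 stayed above the solvent level divided by 3 at 27 features, with solvent levels of 114 to 873 CPM. The exposed level at these 27 was a median 22.7% of the solvent level, against 16.0% at the 61 features low in that library. Their median coefficient of variation was 30.9% between libraries at 3.33 µg/g and 19.7% at 33.3 µg/g. At the 61 it was 42.2% and 31.5% at the same doses.

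**Figure D3:**
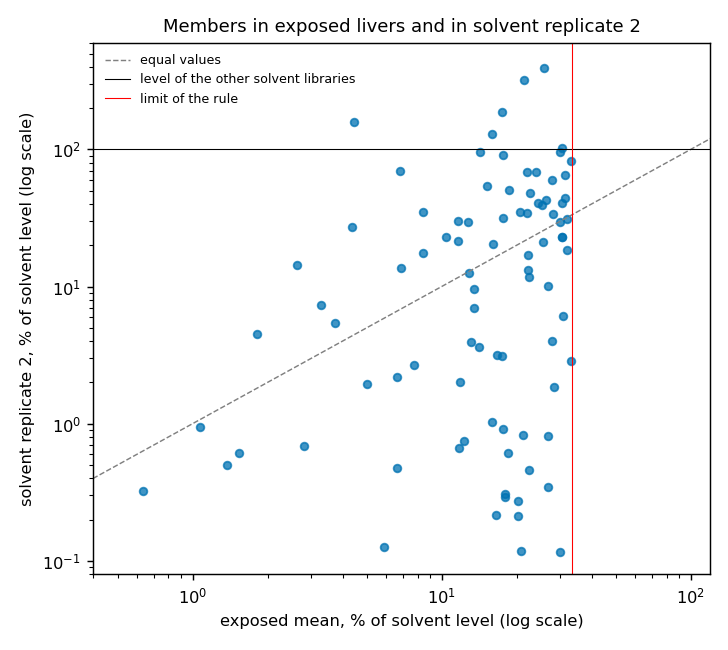
Each of the 88 features by its exposed mean (horizontal axis, % of the solvent level, log scale) and its level in solvent replicate 2 (vertical axis, % of the solvent level, log scale), with lines for equal values, for the level of the other solvent libraries and for the limit of the choice. Solvent replicate 2 reaches the level of the other solvent libraries at 6 features and holds at most 1% of it at 22.

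The median coefficient of variation of CPM over the 88 features was 14.1% in the solvent libraries other than replicate 2 (n = 4), 38.5% at 3.33 µg/g and 29.1% at 33.3 µg/g (n = 5 each). Over the 1180 features it was 11.4%, 16.3% and 12.2% in the same groups. These are medians over features, with no test of the spread. Solvent replicate 2 was left out, whereas every exposed library was kept, and the median was not taken over all 5 solvent libraries. Counting that library, the summed share of the 88 features in solvent livers had a mean of 17.06% and an SD of 8.98. The lower dose had a mean of 4.19% with an SD of 1.91, the higher dose 3.62% with 1.04. For this share, a smaller spread relative to the mean in solvent livers depended on leaving replicate 2 out.

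A few exposed libraries were low or high at most of the features. Replicate 5 at 3.33 µg/g was the lowest of its dose at 65 of the 88 features, and over all features tested at 17.8%. Replicate 1 was the highest of that dose at 56, against 8.38% of all features. Replicate 3 at 33.3 µg/g was the lowest of its dose at 57, against 16.3% of all features. Replicate 4 was the highest of that dose at 29, with no share of all features counted. None of these shares was taken over the 1180 features with a solvent level of at least 100 CPM. Over those features the median Spearman correlation with rank 1 across exposed libraries was 0.73 with TMM scaling and 0.16 with library totals. It was 0.79 and 0.73 over the other 87 of the 88 features. On the TMM-scaled log2 CPM, the median feature of the 88 was -0.99 from the dose mean in replicate 5 and 0.70 in replicate 1 at 3.33 µg/g, and -0.52 in replicate 3 at 33.3 µg/g. Replicate 5 at 3.33 µg/g also had the smallest share of counts in its 20 most abundant features among exposed libraries, 9.41%, followed by replicate 3 at 33.3 µg/g with 12.4%. The part of this make-up in the order was not tested, and the abundant features of the 88 are themselves in that share.

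**Figure D4:**
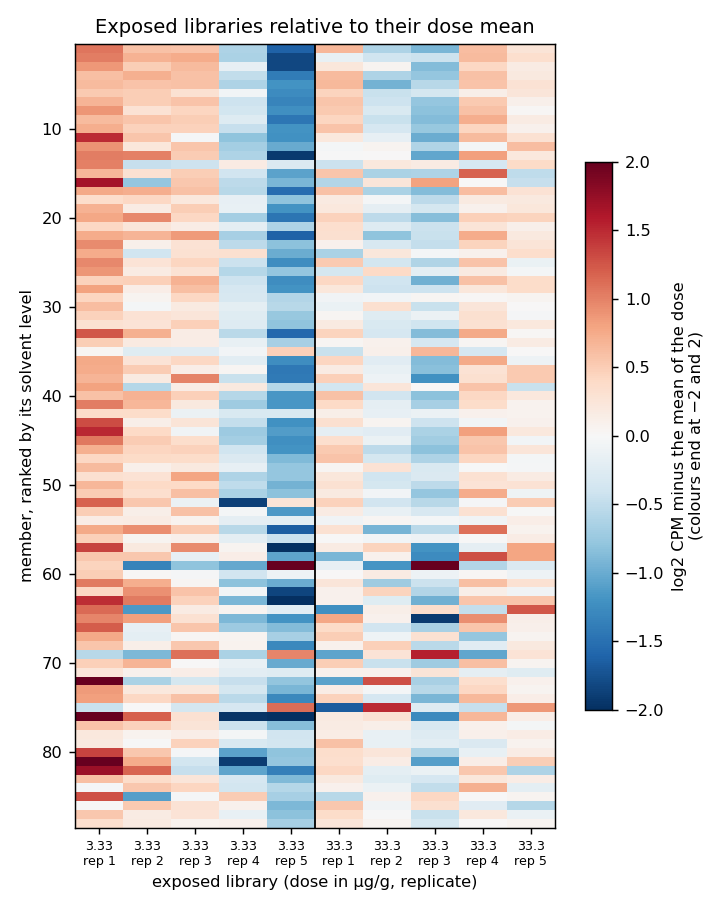
Log2 CPM of each of the 88 features (rows, ranked by solvent level) in the 10 exposed libraries (columns) minus the mean of that feature at its dose, with colours ending at −2 and 2. Replicate 5 at 3.33 µg/g and replicate 3 at 33.3 µg/g are low at most rows, and a few rows run the other way.

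Across the 10 exposed libraries, with each dose centred on its mean, the Spearman correlation with rank 1 had a median of 0.79 over the other 87 features. It was 0.73 over the 1179 other features with a solvent level of at least 100 CPM and -0.03 over all others tested. With CPM on library totals in place of TMM scaling these medians were 0.73, 0.16 and -0.59. The points share libraries and scaling, so these values are descriptions with no p. At ranks 2 to 10 the correlation was 0.79 to 0.96, whereas the 11 features with an exposed level of at most 5% of the solvent level had a median of 0.48.

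The correlation with rank 1 was below 0 at 6 features, of rank 14, 35, 59, 64, 69 and 75, and with library totals it was below 0 at 9. Rank 35 had 57.9, 49.3, 50.9, 64.5 and 108 CPM in replicates 1 to 5 at 3.33 µg/g and 49.0, 80.5, 121, 50.7 and 68.7 CPM in replicates 1 to 5 at 33.3 µg/g. Its highest values were thus in replicate 5 at 3.33 µg/g and replicate 3 at 33.3 µg/g, where rank 1 was lowest. Rank 69 had 6.29, 5.12, 21.2, 7.11 and 25.2 CPM at 3.33 µg/g and 5.29, 15.1, 37.5, 5.12 and 13.8 CPM at 33.3 µg/g in the same order of replicates, again highest in those libraries. Rank 75 was highest in replicate 5 at 3.33 µg/g, with 13.6 CPM, and in replicate 2 at 33.3 µg/g, with 15.3 CPM. The correlation was -0.72, -0.67 and -0.77 at ranks 35, 69 and 75. All of these libraries were nonetheless below the solvent libraries other than replicate 2 at those ranks.

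The comparison of 33.3 with 3.33 µg/g asked whether the higher dose lowered the features further. None of the 88 features passed the test (edgeR adjusted p = 0.999 at the smallest), and 0% of all features tested did. At an unadjusted p under 0.05 there was 1 of 88 features with all libraries in the fit, where the share of all features was 3.68%. Over the alternative fits this count ran from 0 to 5. It was 5 without solvent replicate 2 and 5 with only the groups compared, with no share of all features counted for those fits. DESeq2 and limma-voom also called 0 of the 88 between doses, where they called 4 and 0 of all 13014 features. The libraries of the doses overlapped in CPM at every one of the 88 features, and they did not overlap at 0.868% of all features.

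The point estimates leaned to lower levels at the higher dose. The log2 difference between 33.3 and 3.33 µg/g was below 0 at 73 of 88 features, against 49.1% of all features tested, with a median of -0.23 against 0.00397. Over the 1180 features with a solvent level of at least 100 CPM the median was -0.076 (quartiles -0.16 and 0.014). The 1180 include the 88, and the share of them below 0 was not counted. The 88 features move together between libraries, so 73 is not a count of independent results. Without replicate 1 at 3.33 µg/g, the library with the highest share of the 88, the difference was below 0 at 49 features and the median was -0.02. Without replicate 3 at 33.3 µg/g it was below 0 at 64 and the median was -0.10. Without replicate 5 at 3.33 µg/g, the library with the lowest share, it was below 0 at 82 and the median was -0.42. The median stayed between -0.33 and -0.14 when any 1 of the other 12 libraries was left out.

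The precision of this comparison was low. The median standard error of the log2 difference was 0.59 for the 88 features and 0.20 for all features tested. The 95% interval lay within 2-fold at 19 of 88 features, against 77.5% of all features. The model estimates 1 spread over all 3 groups. Without solvent replicate 2 the median standard error was 0.35 and 51 of the 88 intervals lay within 2-fold. In that fit these were 0.17 and 82.1% for all features tested. For s2f_0006127001 the log2 difference was -0.30 with an interval of -2.13 to 1.53. For s2f_0006018003 it was 0.03 with an interval of -2.04 to 2.10. Among the 88 features rank 48 had the narrowest interval, -0.70 to 0.18 around -0.26.

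**Figure D5:**
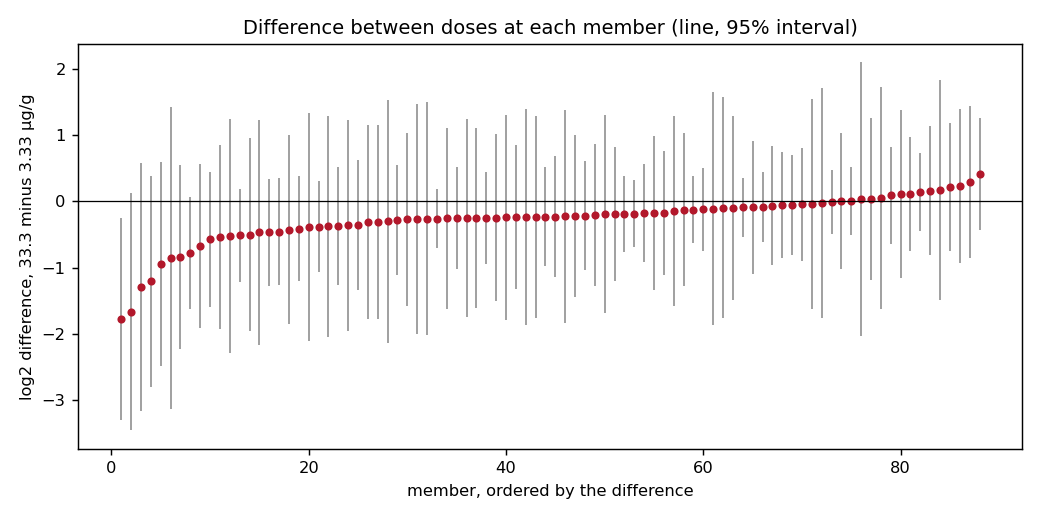
Log2 difference between 33.3 and 3.33 µg/g (vertical axis, TMM-scaled fit) at the 88 features in the order of the difference, with 95% intervals as lines. The differences run from -1.77 to 0.42, and the interval excludes 0 at 1 feature.

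The largest estimated differences were at features of low exposed level, and each was below 0. At rank 81 the replicates 1 to 5 had 4.71, 4.65, 1.89, 3.91 and 5.44 CPM at 33.3 µg/g and 38.0, 13.5, 6.30, 2.37 and 6.14 CPM at 3.33 µg/g. Its log2 difference was -1.77 with a standard error of 0.78, and it was the feature with an unadjusted p under 0.05 in the fit with all libraries. Replicate 1 at 3.33 µg/g was the library farthest above the rest, and without it the difference was -0.78. Rank 52, given above by library, had a difference of -1.67 with a standard error of 0.91. Ranks 82, 76 and 85 had differences of -1.29, -1.21 and -0.95, each with 1 or more libraries at 3.33 µg/g above all those at 33.3 µg/g. Without replicate 1 at 3.33 µg/g these were -0.71, -0.21 and -0.52.

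At 33.3 µg/g alone, the mean was no more than the solvent level divided by 3 at all 88 features. At 3.33 µg/g alone this held at 83, and ranks 9, 14, 49, 50 and 78 stood at 33.4 to 33.8%. Over the 1180 features with a solvent level of at least 100 CPM the shares were 8.39% and 7.29%. The choice limited the mean over both doses, so these counts largely follow from it and are no result about dose. The median level was 16.9% of the solvent level at 33.3 µg/g and 19.2% at 3.33 µg/g. At the 11 features with an exposed level of at most 5% of the solvent level these medians were 1.70% and 2.74%, and at the 40 above 20% they were 25.3% and 28.4%.

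The limits of the choice pass through a continuum. The 5 features just inside the ratio limit, of rank 56, 21, 78, 42 and 9, had exposed levels of 31.3 to 33.1% of the solvent level, and the 5 just outside had 33.4 to 33.9%. One of those just outside averaged 752 ± 207 CPM in exposed livers (SD, n = 10) and 2231 ± 240.0 CPM in the 4 solvent livers (SD, n = 4). In solvent level, rank 88 had 101 CPM. The 3 features nearest below the limit of 100 CPM that met the ratio had exposed levels of 16.7, 4.13 and 1.29 CPM and solvent levels of 99.8, 99.7 and 98.0 CPM. A ratio limit of 0.5 gave 166 features.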

How the data were processed

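RNA from left-lobe liver was sequenced in 15 libraries, 5 per group. The authors deposited 1 table of whole-number counts per feature. The aligner, counter, reference and strand setting were each not given in the sources used here, and near-identical copies may have split or pooled reads. Columns were matched to samples by the dose class in the header and the last digit of the column name, a match that no label states in words, and 0 columns were left over. The 88 features and the comparisons were chosen with earlier results of these data known.

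CPM used library totals. The test was the edgeR 4.0.16 quasi-likelihood F-test (R 4.3.3), two-sided, in 1 model with the 3 groups and no covariate, with TMM scaling and the default filter by expression (minimum count 10, minimum total 15). All 88 features passed it. P-values were adjusted by Benjamini-Hochberg over 13014 features, and the standard error is the size of the log2 fold change over the root of the F statistic. The test was checked on simulated data in which 200 features drawn from all were changed. No library was set apart there as solvent replicate 2 was, so the check does not cover the precision at the 88 features. Library pairs within groups differed by a chi-square per degree of freedom of at least 16.4, so no pair was treated as copies of 1 library. This check cannot show that the libraries came from separate embryos. Features given by ID have the highest solvent level and the lowest ratio. Those described by rank have the 10 highest solvent levels, the 5 lowest ratios, the 5 largest dose differences, the extremes in solvent replicate 2 or a place at the limits; ranks 35, 43, 48, 69, 75, 77 and 86, and those listed for missing a threshold, were chosen after their values were seen. Alternatives were other scalings, filters, thresholds, DESeq2 1.42.0, limma-voom (3.58.1), the replicate number as a block, only the groups compared, and leaving out each library.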

Additional observations from a re-analysis of the deposited data

Results flagged for a closer look

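The summed share of the 88 features and 21 single features gave 66 groups of 5 values. These 21 had the highest solvent levels, the lowest ratios, the largest dose differences or the extremes in solvent replicate 2. In 17 groups the gap of an extreme library to its neighbour passed 0.71 of the whole range, the 95% value of Dixon for 5. About 1 group in 20 would do so by chance, had the features not been picked by their values. Ranks 30 and 74 were picked as the extremes in solvent replicate 2, and all 88 for high levels in the other solvent libraries. The 17 can therefore not be set against that rate. In 14 of the 17 the library was solvent replicate 2, so these are not independent. Its summed share was 1.22% of counts. It was the lowest solvent library for s2f_0006127001, with 327 CPM, and for ranks 2, 4, 5, 6, 7, 9 and 10, with 87.8, 61.7, 13.4, 12.8, 25.1, 74.8 and 308 CPM. It was also the lowest for ranks 52, 74, 76 and 81, with 2.59, 0.172, 24.9 and 17.2 CPM. At rank 30 it was the highest, with 2677 CPM.

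The other 3 were in exposed libraries. Rank 3 had 345 CPM in replicate 3 at 33.3 µg/g, the lowest of its dose. Rank 59 had 7.10 CPM in the same library and 15.8 CPM in replicate 5 at 3.33 µg/g, each the highest of its dose.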

How the results depend on the processing

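The choice gave 166 features with a ratio limit of 0.5 and 216, including all 88, with TMM effective library sizes; every other setting of it stayed between 62 and 116, and leaving out single libraries gave 86 to 99. With all 5 solvent libraries in the mean it gave 92 features, of which 68 were among the 88. The calls against solvent were 83 of 88 at 33.3 µg/g, but 55 with limma-voom, which called 1519 of all 13014 features lower. They were 72 to 88 when single libraries were left out, against 1384 to 2719 of all features. At 3.33 µg/g they were 77, but 54 with limma-voom, against 1403 of 13014. Without single libraries they were 70 to 88 at that dose, against 1290 to 2470 of all features. With the replicate block they were 70 and 63, against 1488 and 1372 of 13014. Whether the numbers pair the samples was not tested. Of same-numbered pairs, 6 of 15 correlated above 0.1 (range -0.40 to 0.55), and a library correlated best with its own number in 8 of 30 cases. The median log2 fold change at 33.3 µg/g was -2.33 with library totals alone and -2.52 with limma-voom, and -3.23 to -2.80 without single libraries; at 3.33 µg/g that range was -3.02 to -2.54. The scaling by library totals gave a median of all features tested of 0.40 at 33.3 µg/g, against 0.02 with TMM. Between doses, 0 of 88 were called in every one of 23 alternative fits and at thresholds of 0.01 and 0.1 (smallest adjusted p 0.597). Of all features, DESeq2 called 4 of 13014 between doses and the fit with only the groups compared 1 of 12717. The other fits called 0 of all features at 0.05. The median over the 88 ran from -0.42 to -0.02 without single libraries. Features without overlap numbered 30, and 30 to 88 without single libraries, 88 being without solvent replicate 2. Those low in solvent replicate 2 numbered 61, and 60 to 63 without single solvent libraries.

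The difference between doses of s2f_0006018003, 0.03, changed sign with DESeq2 (-0.054), limma-voom (-0.00444) and only the groups compared (-0.014), and ranged from -0.48 to 0.41 without single libraries; the cause was not tested. The depth limits the lowest values: 2 features had fewer than 10 counts in an exposed library and 4 in solvent replicate 2.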

Other observations

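Within the solvent libraries other than replicate 2, replicate 4 was the lowest at 57 of the 88 features and the highest at 3. Replicates 1 and 5 were the highest at 30 each and replicate 3 at 25. None of these counts was taken over other features. The 88 features held 18.5% of the counts of replicate 4, the smallest share of these libraries. Its 20 most abundant features held 25.6%, also the smallest share of these libraries. At rank 76 exposed libraries spread from 2.30 to 47.3 CPM, against 138 to 148 CPM in the solvent libraries other than replicate 2, the most even of the 88 there. Rank 88 was the least even, with a coefficient of variation of 75.9% in the solvent libraries other than replicate 2, 14.8% at 3.33 µg/g and 11.9% at 33.3 µg/g.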
